A study of Mus musculus with 95 samples.

Results

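The proteasome genes of the mouse were followed through striatum, cortex and liver of 6-month-old knock-in mice whose Htt gene holds a long CAG repeat; mutation of this gene causes Huntington's disease. The members are all protein-coding genes whose mouse symbol begins with Psm, a letter from a to g and a digit. This rule found 50 of the 21226 protein-coding genes in the deposited table of 39179 genes, and it used no measured value. The mice were heterozygous z_Q175 KI mice of strain CHDI-81003003, which keep the neo cassette (neo-in Het), heterozygous Z_Q175 (neo-) KI mice of strain CHDI-81003019, which lack it (neo-out Het), and the wild-type littermates of each line (neo-in WT and neo-out WT). The neo cassette is the drug-resistance marker used in gene targeting. All mice were on the C57BL6/J background, and each of the 4 groups held 4 females and 4 males. The repeat sits in the mouse's own Htt gene, so no transgene promoter drives it, and Het mice keep 1 unexpanded copy. Its length, deposited for each animal, was 181 to 200 CAG (median 192) in 8 neo-in Het mice and 179 to 208 CAG (median 200) in 8 neo-out Het mice.

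The proteasome is the protease complex that degrades proteins tagged with ubiquitin. Its barrel, the 20S core, is built from alpha rings (Psma genes) and beta rings (Psmb genes), and Psmb5, Psmb6 and Psmb7 encode the subunits with proteolytic sites. The 19S cap binds and unfolds substrates through its ATPases (Psmc) and non-ATPase subunits (Psmd). Interferon induces Psmb8, Psmb9 and Psmb10, which take the places of Psmb5, Psmb6 and Psmb7 in the immunoproteasome and favour peptides for MHC class I. Interferon also induces Psme1 and Psme2, whose products form PA28, a ring that opens the barrel without ubiquitin or ATP. In Huntington's disease, ubiquitin and proteasome subunits are found in the inclusions that mutant huntingtin forms in neurons.

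By role the members comprise 8 alpha subunits (with Psma8, a form of the testis), 7 constitutive beta subunits, 4 inducible or thymic beta subunits (the thymic one is Psmb11), 6 ATPases and 11 non-ATPase subunits of the 19S cap. The others are 3 chaperones of 19S assembly (Psmd5, Psmd9 and Psmd10), 4 chaperones of 20S assembly (Psmg1 to Psmg4), 5 activator genes, the regulator Psmf1 (PI31) and Psmc3ip. Psmc3ip matches the symbol rule but is known as a factor of meiotic recombination. In each tissue 49 of the 50 passed the filter on low counts. Psmb11 did not, with 0 to 5 counts per striatum library, 1 to 17 per cortex library and 0 to 1 per liver library.

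Messenger RNA was sequenced from 95 libraries, 31 of striatum and 32 each of cortex and liver, since the first replicate of the neo-out Het males was not analysed here in striatum. Libraries held 31.02 to 68.36 M expected counts, of which the members took 0.2335 to 0.3122%. The labelled tissues matched their markers: between WT tissues 8 of 8 markers of striatal projection neurons were called higher in striatum than in cortex, and 6 of 6 hepatocyte markers higher in liver than in cortex. Htt was lower in Het than in WT mice of each line in all 3 tissues, by 0.23 to 0.57 on the log2 scale. Among the WT striatum libraries, 3 stood apart in the cortical neuron gene Slc17a7 (110.3 to 144 CPM, the count scaled to library size) and 1 in the choroid plexus gene Ttr (1347 CPM). The genotype and tissue comparisons of striatum were also made without these 4.

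The first comparison asked which proteasome genes differ between Het and WT striatum. In each line the pair of PA28 genes had the largest changes among the members called. Psme1 (PA28 alpha) was 1.34-fold higher in neo-in Het mice and 1.27-fold higher in neo-out Het mice than in their WT littermates, and Psme2 (PA28 beta) was 1.18-fold and 1.16-fold higher. A few subunits of the 20S core and the 19S cap were called higher in 1 or both lines, each by less than 0.15 on the log2 scale. Psmb8 and Psmb9, the inducible partners of PA28, did not pass the test in either line, while Psmb10, the third inducible subunit gene, passed with both lines together (0.28 ± 0.10) but in neither alone. With both lines together 12 of 49 tested members were higher and 0 lower, by edgeR's quasi-likelihood test at a Benjamini-Hochberg adjusted p below 0.05 over all genes, beside 16.5% of all 17703 genes tested called higher and 15.8% called lower.

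Psme1 (chr14:55578123-55581529, plus strand) and Psme2 (chr14:55587441-55591113, minus strand) lie close together on mouse chromosome 14 (GRCm38), and Psme1 overlaps Emc9 on the opposite strand by 14 bases. Their promoter windows are shown because these genes carry the main change in Het striatum and both are known interferon targets. Each window runs from 250 bases before to 50 bases after the RefSeq start (GRCm38.p6). Capitals mark the match to the interferon-stimulated response element, searched on both strands as GAAA, a pair of any bases and GAAA again.
Psme1: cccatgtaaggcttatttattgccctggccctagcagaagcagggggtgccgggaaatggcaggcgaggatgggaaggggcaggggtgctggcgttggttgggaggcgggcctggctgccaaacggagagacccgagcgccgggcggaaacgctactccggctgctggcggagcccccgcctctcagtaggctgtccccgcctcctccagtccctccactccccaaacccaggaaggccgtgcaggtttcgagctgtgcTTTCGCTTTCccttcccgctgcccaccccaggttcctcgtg
Psme2: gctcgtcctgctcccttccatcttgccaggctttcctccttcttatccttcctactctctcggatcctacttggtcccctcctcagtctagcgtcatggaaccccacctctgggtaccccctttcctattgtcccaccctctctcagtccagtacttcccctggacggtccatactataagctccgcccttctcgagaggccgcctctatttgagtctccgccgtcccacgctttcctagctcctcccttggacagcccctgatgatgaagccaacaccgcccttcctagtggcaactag
The windows are chr14:55578244-55578543 (plus strand) and chr14:55591052-55591351 (minus strand). The Psme1 window lies wholly inside the gene span given above, since that span begins before the RefSeq start used for the window. In Psme1 the match reads on the reverse strand at bases 260 to 269 of the window, just after the RefSeq start. The Psme2 window held no match to these letters. The pattern was in 5 of the 42 member windows (11.905%; Psmb3, Psmd4, Psmd9, Psme1 and Psmg4) and in 943 of 27025 gene windows of this length (3.489%).

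In neo-in striatum Psme1 had 18.9, 21.4 and 24.5 CPM (lowest, median and highest of 8 libraries, scaled by TMM factors) in Het mice, against 14.7, 15.8 and 19.1 CPM in 8 WT mice. All but 1 of the Het libraries (7 of 8) lay above every WT library. The log2 change was 0.42 ± 0.06 (± SE; edgeR adjusted p = 6.61e-06). In neo-out striatum Psme1 had 18.2, 21.1 and 23.9 CPM in 7 Het mice, against 14.8, 16.4 and 18.7 CPM in 8 WT mice. Here 6 of 7 Het libraries lay above every WT library, and the change was 0.34 ± 0.06 (edgeR adjusted p = 0.000201). Over both lines it was 0.38 ± 0.04 (edgeR adjusted p = 5.73e-08), with Het above WT in females and males of either line by 0.32 to 0.47.

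Psme2 differed less, with the same sign. In neo-in striatum it had 17.8, 20.2 and 22.1 CPM in 8 Het mice, against 15.2, 17.3 and 18.1 CPM in 8 WT mice, a log2 change of 0.24 ± 0.05 (edgeR adjusted p = 0.000592). In neo-out striatum it had 18.3, 20.1 and 21.8 CPM in 7 Het mice, against 15.9, 16.9 and 19.4 CPM in 8 WT mice, a change of 0.21 ± 0.05 (edgeR adjusted p = 0.00371). In neo-in mice 7 of 8 Het libraries, and in neo-out mice 6 of 7, lay above every WT library. Per length, Psme1 stood at 84.9 ± 7.36% of Psme2 in deposited FPKM (fragments scaled to gene length and depth) in 15 Het striata and at 75.7 ± 7.30% in 16 WT striata (mean ± SD).

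**Figure D1:**
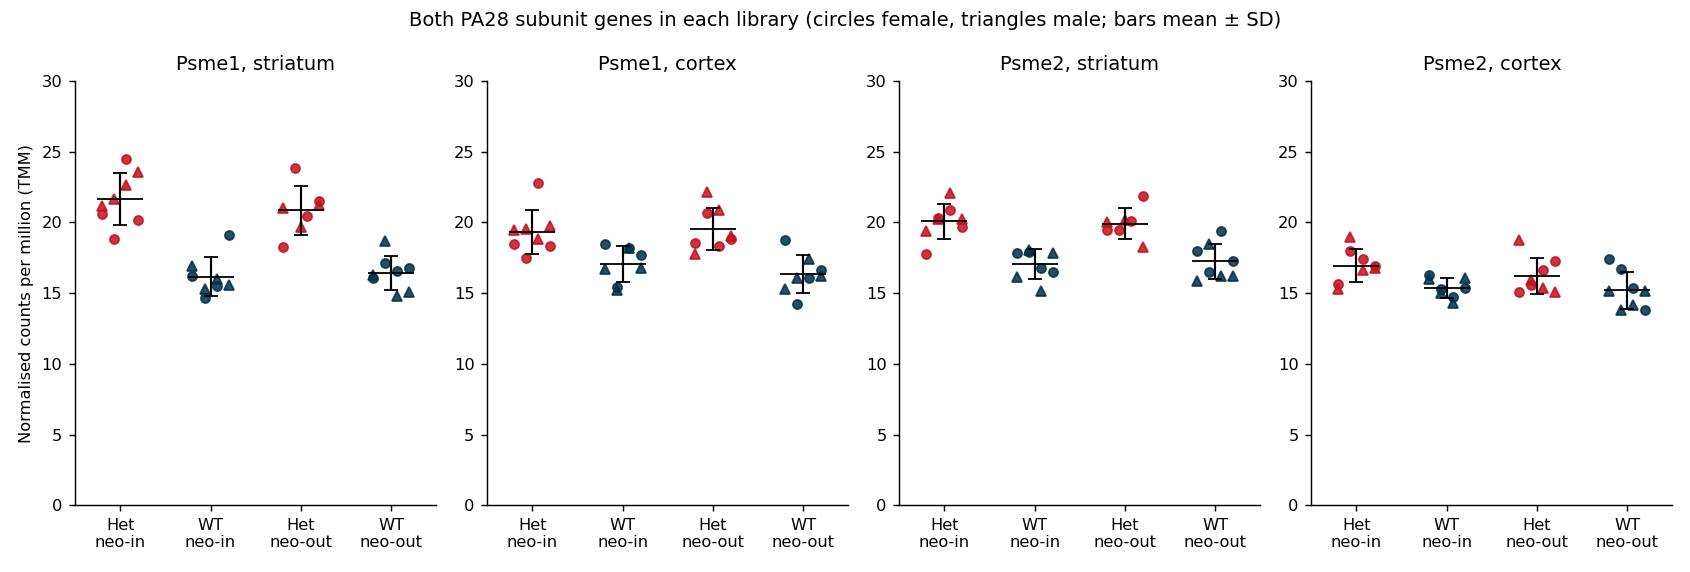
CPM of Psme1 and Psme2 in each striatum and cortex library by line, with Het left of WT; circles are females, triangles males, and bars the mean ± SD of 7 or 8 libraries. Striatal Psme1 averaged 21.7 CPM in neo-in Het mice and 16.2 CPM in neo-in WT mice, and the points of the genotypes lie closer together in cortex.

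The other activator genes did not pass the test. Psme3 (PA28 gamma, a nuclear form) had a log2 difference of 0.03 ± 0.03 in neo-in mice, at 84.9 ± 4.44 CPM in Het mice and 83.2 ± 2.88 CPM in WT mice (SD, n = 8 each), and of 0.04 ± 0.04 in neo-out mice. For Psme4 (PA200, which caps the barrel) the values were 0.03 ± 0.04 in neo-in and -0.02 ± 0.05 in neo-out mice. Psme2b, a near-copy of Psme2, had only 4 to 36 counts per striatum library and is uncertain, since reads of the pair can be split between them. Against Psme3, Psme1 stood at 60.3 ± 6.15% of its FPKM in 15 Het striata and at 46.4 ± 3.58% in 16 WT striata (SD). Psmf1, which binds the 20S core, was higher in neo-in Het mice, with 27.7 ± 1.54 CPM in Het mice and 25.9 ± 0.954 CPM in WT mice (SD, n = 8 each; log2 change 0.10 ± 0.03, edgeR adjusted p = 0.0286).

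Among the catalytic beta subunits, Psmb7 (trypsin-like site) was higher in neo-in Het striatum, with 81.2 ± 5.32 CPM in Het mice and 75.1 ± 1.98 CPM in WT mice (SD, n = 8 each; log2 change 0.11 ± 0.03, edgeR adjusted p = 0.0174). In neo-out mice Psmb7 missed the threshold (0.09 ± 0.03, edgeR adjusted p = 0.0687). Psmb5 (chymotrypsin-like site) had 37.1 to 51.2 CPM in neo-in Het mice and 36.5 to 48.5 CPM in neo-in WT mice, and Psmb6 (caspase-like site) had 53.2 to 67.3 CPM in neo-in Het mice and 52.9 to 62.2 CPM in neo-in WT mice. The ranges of either gene overlapped and neither was called in either line. Of the 49 tested members, the 8 alpha subunits held 0 calls in each line and over both lines, with a median difference of 0.03 over both. Psma8 had 2 to 21 counts per striatum library and log2 differences of 0.09 ± 0.27 and 0.02 ± 0.27 in neo-in and neo-out mice.

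The inducible beta subunits were low in striatum and did not follow PA28 as a set. Psmb8 had 2.23, 2.88 and 3.47 CPM in 8 neo-in Het mice, against 1.90, 2.87 and 3.49 CPM in 8 neo-in WT mice (0.03 ± 0.12, not called), and in neo-out mice the difference was -0.03 ± 0.12. Psmb9 had 0.639, 1.25 and 2.21 CPM in neo-in Het mice, against 0.963, 1.35 and 1.97 CPM in neo-in WT mice (-0.13 ± 0.19, not called), and in neo-out mice the difference was -0.22 ± 0.20. Het and WT libraries overlapped for both genes, and the 23 to 91 counts of Psmb9 per library leave wide errors. Psmb10 was called with both lines together, with 8.07 ± 1.65 CPM in 15 Het mice and 6.62 ± 1.33 CPM in 16 WT mice (SD; log2 change 0.28 ± 0.10, edgeR adjusted p = 0.0268). Without the 4 WT libraries that stood apart the change was 0.36 (edgeR adjusted p = 0.0122). In neo-in mice alone its edgeR adjusted p was 0.215 and in neo-out mice 0.126. The antisense gene Gm16156 overlaps Psmb10 and, as it is not stated whether counting used strand, reads of the pair cannot be told apart.

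In the 19S cap, Psmd1, a large scaffold subunit of its base, was higher in either line. It had 109.5 to 129 CPM in neo-in Het mice, against 100.3 to 119 CPM in neo-in WT mice (0.12 ± 0.04, edgeR adjusted p = 0.0275), and 113 to 136 CPM in neo-out Het mice, against 106 to 119 CPM in neo-out WT mice (0.14 ± 0.04, edgeR adjusted p = 0.017). Without the 4 WT libraries that stood apart Psmd1 was called in neither line (0.10 in neo-in and 0.12 in neo-out mice). Psmd1 shares its locus with Htr2b on the opposite strand. Psmd6, a lid subunit, was higher as well, with 47.9 to 54.8 CPM in neo-in Het mice, against 46.3 to 51.3 CPM in neo-in WT mice (0.10 ± 0.03, edgeR adjusted p = 0.0432), and a change of 0.11 ± 0.03 in neo-out mice (edgeR adjusted p = 0.0279). Without the same 4 libraries Psmd6 too was called in neither line (0.09 in neo-in and 0.12 in neo-out mice), while over both lines Psmd1 and Psmd6 passed (0.11 and 0.10). Psmd8 was called in neo-in mice (0.09 ± 0.03, edgeR adjusted p = 0.0288) and Psmd11 in neo-out mice (0.10 ± 0.03, edgeR adjusted p = 0.0257). Het and WT libraries of all 4 genes overlapped in both lines. Over both lines the ATPase genes Psmc3 and Psmc4 and the non-ATPase gene Psmd2 were also called higher, by 0.05 to 0.09; without the 4 libraries Psmd2 and Psmd11 were not called (0.06 and 0.06). Summed over the 17 subunits of the cap, CPM ran from 1299 to 1401 in neo-in Het mice and from 1280 to 1348 in neo-in WT mice.

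None of the 7 tested chaperones of 19S or 20S assembly was called over both lines, with log2 differences of -0.01 (Psmg4) to 0.13 (Psmg3). Psmc3ip, whose product acts in meiosis, was not called either (0.13 ± 0.06, edgeR adjusted p = 0.125). Without the 4 WT libraries that stood apart it was called higher over both lines (0.19, edgeR adjusted p = 0.0408), as were the core gene Psmb2 (0.07) and the cap gene Psmd4 (0.08), which otherwise were not.

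In counts, 7 of 49 members were called higher in neo-in Het striatum and 0 lower, beside 8.75% and 10.7% of all genes. In neo-out Het striatum 5 were called higher and 0 lower, beside 8.71% and 9.28% of all genes. Psmd1, Psmd6, Psme1 and Psme2 were called in both lines, and without the 4 WT libraries that stood apart Psme1 and Psme2 of these were, joined by Psmc4. The share of members called higher was 14.3% in neo-in, 10.2% in neo-out and 24.5% in both lines together, so in the neo-out line it lay near that of all genes. Over the 49 members the log2 difference had a median of 0.05 in neo-in mice and 0.04 in neo-out mice, beside 0.01 over all genes tested in either line. On deposited FPKM 15, 12 and 25 members were called higher in neo-in mice, neo-out mice and both lines, beside 15.6%, 13.2% and 25.5% of all genes called higher and 7.47%, 7.02% and 11.3% lower. The Het effect differed between the lines for 0 of 49 members by edgeR (1 at an unadjusted p below 0.05; 0 by DESeq2), beside 0.00565% of all genes.

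**Figure D2:**
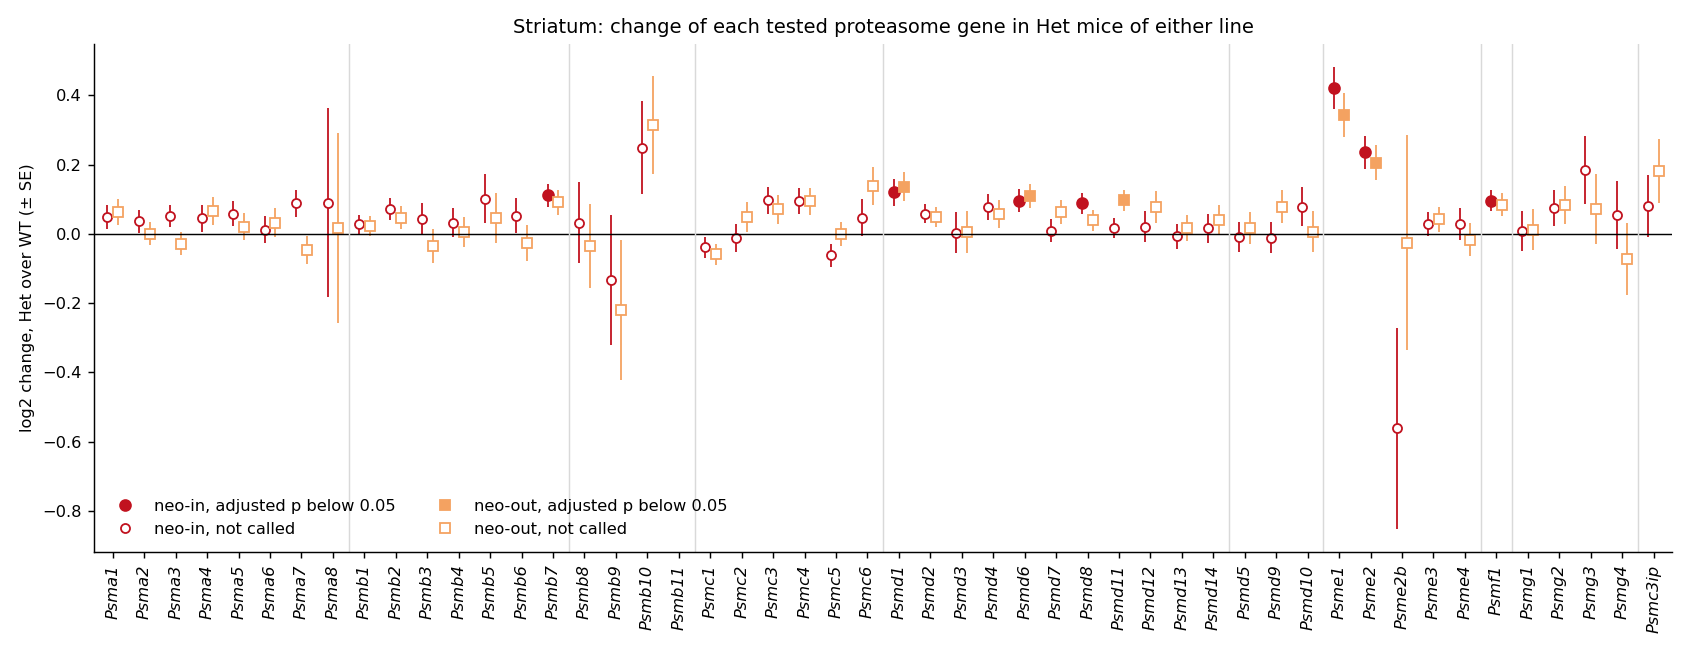
Log2 change of each tested proteasome gene in Het over WT striatum (± SE), neo-in as circles and neo-out as squares, filled where the edgeR adjusted p is below 0.05; grey lines separate the roles. Psme1 and Psme2 stand highest among the filled points, most constitutive subunits lie within 0.15 of 0, and Psmb8, Psmb9 and Psme2b have wide errors.

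Other genes of the pathway were counted in the striatum of both lines together, where 16.5% of all genes were called higher and 15.8% lower. Of 12 proteasome partners, 2 were called higher, Ubxn4 (0.13 ± 0.03) and Fbxo7 (0.09 ± 0.03), and 1 lower, Pomp, the maturation factor of the 20S core (-0.11 ± 0.03, edgeR adjusted p = 0.0012). Of 14 genes around NRF1, the transcription factor that raises proteasome genes when the proteasome is inhibited, 3 were called higher and 3 lower. Nfe2l1, which encodes NRF1, was lower (-0.10 ± 0.02), as was the protease gene Ddi2 (-0.12 ± 0.03), whose product activates NRF1. Nfe2l3, a relative of NRF1, was higher, at 10.03 ± 1.48 CPM in 15 Het mice and 7.32 ± 0.869 CPM in 16 WT mice (SD; 0.45 ± 0.06, edgeR adjusted p = 1.27e-06).

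Of 18 tested ubiquitin and shuttle genes, 3 were called higher and 1 lower, beside the same 16.5% and 15.8% of all genes. The ubiquitin-activating enzyme gene Uba1 had 293 to 335 CPM in Het mice and 267 to 291 CPM in WT mice (0.15 ± 0.02, edgeR adjusted p = 1.83e-06). The shuttle gene Ubqln4 had 108 to 124 CPM in Het mice and 129 to 154 CPM in WT mice (-0.26 ± 0.02, edgeR adjusted p = 1.58e-09). The libraries of the genotypes did not overlap for either gene. The autophagy receptor gene Sqstm1 was higher too (0.15 ± 0.03). Of 13 genes of MHC class I processing, 2 were called higher, among them the peptidase gene Erap1 (0.17 ± 0.04), and 0 lower, with a list median of 0.00 beside 0.01 over all genes.

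Cell type markers moved with genotype beside these results. Of 8 markers of striatal projection neurons 7 were called lower in Het striatum and 1 higher, and their sum was 2960 to 3322 CPM in neo-in Het mice and 4675 to 5804 CPM in neo-in WT mice. Of the 7 tested of 9 microglia and macrophage markers 0 were higher and 3 lower, with sums of 259.6 to 306 CPM in neo-in Het mice and 287 to 348 CPM in neo-in WT mice, and of 263 to 303 CPM in neo-out Het mice and 275 to 301 CPM in neo-out WT mice. The Kupffer cell markers Clec4f and Vsig4 were each at 0 throughout 1 group. Of 4 endothelial markers 3 were lower, with sums of 139.9 to 165 CPM in neo-in Het mice and 165 to 206 CPM in neo-in WT mice. Of 4 astrocyte markers 2 were lower over both lines, with sums of 2712 to 3448 CPM in neo-in Het mice and 3612 to 4020 CPM in neo-in WT mice. Slc1a2 made up most of these sums, with means of 2915 CPM in neo-in Het mice and 3619 CPM in neo-in WT mice. It was the only astrocyte marker called in neo-in mice. Of 4 oligodendrocyte markers 1 was higher and 2 lower, with sums of 7134 to 8677 CPM in neo-in Het mice and 7388 to 10250 CPM in neo-in WT mice. In neo-out mice the projection neuron sum was 2593 to 3435 CPM in Het mice and 4313 to 5381 CPM in WT mice, and the endothelial sum 141 to 161 CPM in Het mice and 156 to 173 CPM in WT mice. Of the 2 tested of 6 lymphocyte markers 1 was lower, with sums of 55.2 to 71.8 CPM in neo-in Het mice and 78.3 to 110 CPM in neo-in WT mice. Of 5 choroid plexus markers 2 were lower in neo-out Het mice, with sums of 30.2 to 52.3 CPM in Het mice and 24.5 to 1452 CPM in WT mice, and 0 were called by edgeR without the 4 WT libraries that stood apart. Of the 3 tested hepatocyte markers 1 was lower over both lines. Of 6 cortical neuron markers 1 was lower in neo-out Het mice and 1 higher in neo-in Het mice. In bulk tissue, fewer cells of a type and less RNA per cell cannot be told apart, and the part of cell composition in the proteasome differences was not tested.

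Clock genes moved as well. In striatum 7 of 9 were called lower in Het mice over both lines. In liver 6 of 9 were higher and 1 lower in neo-out Het mice, while in neo-in Het mice 0 were called by edgeR. A score of clock genes in the liver of the same animals ran from -1.833 to 1.733 in neo-out Het mice and from -3.74 to -1.581 in neo-out WT mice (medians 0.395 and -2.126), and from -1.04 to 2.768 in neo-in Het mice and -0.286 to 2.873 in neo-in WT mice (medians 0.211 and 1.706). The order of the medians was opposite in the 2 lines, and the neo-in ranges overlapped widely. With the score as a covariate 0 members were called in neo-out striatum by edgeR, beside 2.61% of all genes called higher and 4.74% lower. There Psme1 had 0.28 (edgeR adjusted p = 0.0942) and Psme2 had 0.18 (edgeR adjusted p = 0.215). In neo-in striatum 6 were called higher with it, beside 6.29% of all genes higher and 7.86% lower, with Psme1 at 0.45 (edgeR adjusted p = 3.19e-05). Over both lines 7 were called higher, beside 13.6% and 14.0% of all genes, with Psme1 at 0.36 (edgeR adjusted p = 2.2e-06). The part of the clock phase at collection in these differences was not tested.

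The calls of Psme1 and Psme2 held in each line without any single library, with Psme1 at 0.38 to 0.46 in neo-in and 0.31 to 0.38 in neo-out mice. Without the 4 WT libraries that stood apart, Psme1 had 0.41 in neo-in and 0.38 in neo-out mice. The members called higher then numbered 6, 4 and 13 in neo-in mice, neo-out mice and both lines. Beside them stood 7.69%, 6.73% and 14.3% of all genes called higher and 9.81%, 7.96% and 14.2% lower. Of the pathway lists over both lines, the called genes then numbered 3 higher and 3 lower around NRF1, 1 and 1 among the partners, 3 and 1 among ubiquitin and shuttle genes and 3 and 0 in MHC class I processing. Of the markers, 7 of projection neurons, 2 of microglia and macrophages, 3 of endothelium and 1 of astrocytes were then lower. Leaving out any 1 of 6 of the 16 neo-in libraries ended the neo-in call of Psmd1 (edgeR adjusted p up to 0.0795), of 5 that of Psmd8 and of 4 that of Psmf1. In neo-out mice the same held for any 1 of 5 of 15 libraries for Psmd6, 3 for Psmd11 and 2 for Psmd1.

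The same comparison was made in cortex, where Psme1 was the only member called by edgeR. In neo-out cortex it had 17.8, 18.96 and 22.2 CPM (lowest, median and highest of 8) in Het mice, against 14.3, 16.2 and 18.7 CPM in 8 WT mice, a log2 change of 0.26 ± 0.06 (edgeR adjusted p = 0.0116). In neo-in cortex it had 17.5, 19.2 and 22.8 CPM in 8 Het mice, against 15.2, 17.2 and 18.5 CPM in 8 WT mice, a difference of 0.18 ± 0.06 that missed the threshold (edgeR adjusted p = 0.132). The genotypes overlapped in either line. Over both lines the change was 0.22 ± 0.04 (edgeR adjusted p = 0.000864), with Het above WT in females and males of either line by 0.14 to 0.29. Psme2 had 0.12 ± 0.04 over both lines (edgeR adjusted p = 0.0554). With the liver clock score as a covariate the neo-out call of Psme1 was lost (0.19, edgeR adjusted p = 0.467), while over both lines it passed (0.20, edgeR adjusted p = 0.007). Whether the change of Psme1 differs between striatum and cortex was not tested.

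Of 49 members, 1 was called higher in cortex over both lines and 0 lower, beside 2.54% and 4.29% of all genes. In neo-out mice 1 was called higher and 0 lower, beside 0.825% and 1.98% of all genes. In neo-in mice 0 were called by edgeR and 0 by DESeq2, beside 1.67% of all genes by edgeR. At an unadjusted p below 0.05 there were 6 neo-in members, and the share of all genes at that p is not given here. DESeq2 called 3 members higher over both lines and 2 in neo-out mice, beside 3.24% and 1.31% of all genes. The 14 constitutive 20S subunits summed to 777 to 827 CPM in neo-in Het cortex and 741 to 824 CPM in neo-in WT cortex, and Psmb8, Psmb9 and Psmb10 to 18.6 to 29.4 CPM in neo-in Het cortex and 18.4 to 28.1 CPM in neo-in WT cortex. Both pairs of ranges overlapped. The line difference of the Het effect was called for 0 members by edgeR (1 at an unadjusted p below 0.05; 0 by DESeq2), beside 0.0% of all genes. Of the other lists, 1 of 14 NRF1 genes was higher over both lines, Nfe2l3 (0.21 ± 0.05), and 1 of 18 tested ubiquitin and shuttle genes, the autophagy receptor gene Sqstm1 (0.08 ± 0.02), while 0 of 13 genes of MHC class I processing and 0 of 12 proteasome partners were called by edgeR. Cell type markers moved in cortex too: 6 of 8 markers of striatal projection neurons were called lower over both lines (list median -0.56), with sums of 158 to 191 CPM in neo-in Het cortex and 173 to 499 CPM in neo-in WT cortex, and of 154 to 209 CPM in neo-out Het cortex and 172 to 259 CPM in neo-out WT cortex. Of the astrocyte, oligodendrocyte and lymphocyte markers 1 each was lower, of the hepatocyte markers 1 was higher, of 9 clock genes 1 was higher and 2 were lower, and of the microglia, endothelial, choroid plexus and cortical neuron markers 0 were called by edgeR. The choroid plexus gene Ttr still ran up to 1577 CPM in neo-out WT cortex (median 10.25) and 627.7 CPM in neo-in Het cortex (median 17.3). No cortex library was set aside for its Ttr. Leaving out any 1 library kept the number of members called in neo-out cortex at 1. The part of these markers' cells in the cortical difference of Psme1 was not tested.

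In liver, the ATPase gene Psmc3 was lower in neo-in Het mice, with 69.7, 77.4 and 89.9 CPM (lowest, median and highest of 8), against 76.5, 88.5 and 102 CPM in 8 WT mice. The genotypes overlapped, with 4 of 8 Het libraries below every WT library, and the log2 change was -0.18 ± 0.04 (edgeR adjusted p = 0.0432). It was the 1 member called lower of 49, beside 0.112% of all genes, and 0 were higher, beside 0.427%. Leaving out any 1 of 9 of the 16 libraries ended this call (edgeR adjusted p up to 0.125). Of 7 other settings 4 ended it too, among them no count filter, a fit of the compared groups alone and the clock score as a covariate (edgeR, limma and DESeq2 adjusted p from 0.00456 to 0.235). In neo-out liver the median of Psmc3 was 80.3 CPM in Het mice and 79.7 CPM in WT mice. The neo-in WT libraries of this comparison also serve in that of the WT lines below, where Psmc3 was called too. Psmc3 shares its locus with Slc39a13 on the opposite strand. In all, 41 of 49 members had negative differences in neo-in liver, with a median of -0.08, beside -0.01 over all genes. The share of negative differences over all genes was not counted.

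In neo-out liver 0 of 49 members were called by edgeR (1 at an unadjusted p below 0.05; 0 by DESeq2), beside 0.533% of all genes. Over both lines 0 were called by edgeR and 0 by DESeq2, beside 0.0658% of all genes by edgeR at the adjusted p. At an unadjusted p below 0.05 there were 6 members over both lines. Psme1 had 51.4 to 71.2 CPM in neo-in Het liver, against 49.8 to 68.3 CPM in neo-in WT liver (0.03 ± 0.07), and a difference of 0.14 ± 0.07 in neo-out liver (edgeR adjusted p = 0.495). The PA28 difference of the striatum was thus not detected in liver, where Psme1 had 1803 to 3982 counts per library. For the difference between the lines 0 members were called by edgeR, beside 0.835% of all genes at the same adjusted threshold. DESeq2 called 2 members higher, beside 0.907% of all genes. At an unadjusted p below 0.05 there were 12 members by edgeR, and the share of all genes at that p is not given here. The median difference, neo-out less neo-in effect, was 0.11 over the members and 0.00 over all genes, with 42 of 49 positive. The share of positive differences over all genes was not counted. With the liver clock score as a covariate the members' median lay 0.07 above that of all genes, against 0.108 without it.

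WT mice of the lines were compared as a check of the baseline. In striatum 0 of 49 members were called by edgeR (1 at an unadjusted p below 0.05; 0 by DESeq2), beside 0.469% of all genes, and in cortex 0 (2 at an unadjusted p below 0.05; 0 by DESeq2), beside 1.79%. In liver 1 was called higher in neo-out WT mice and 6 lower, beside 4.91% and 4.45% of all genes. Psmd11, a lid subunit, was higher, with 95.1 to 122 CPM in neo-out WT liver, against 74.0 to 100.2 CPM in neo-in WT liver (0.26 ± 0.06, edgeR adjusted p = 0.00881). Psmb10 (-0.27 ± 0.09), Psmc5 (-0.21 ± 0.05), Psmd13 (-0.21 ± 0.05), Psmc3 (-0.16 ± 0.04), Psmd6 (-0.15 ± 0.05) and Psmc2 (-0.14 ± 0.04) were lower. The liver clock score of these mice did not overlap between the lines. With it as a covariate 0 members were called by edgeR, beside 0.0197% of all genes higher and 0.0132% lower, and Psmb10 stood at 0.07 (edgeR adjusted p = 0.936). Line and clock phase cannot be told apart in these libraries. Of 6 hepatocyte markers 1 was called higher, with sums of 88690 to 111600 CPM in neo-out WT liver and 82680 to 96920 CPM in neo-in WT liver. Of 9 microglia and macrophage markers 1 was higher, with sums of 162 to 252 CPM in neo-out WT liver and 102 to 288 CPM in neo-in WT liver. Of the choroid plexus list Ttr was higher, with means of 4532 CPM in neo-out WT liver and 3701 CPM in neo-in WT liver, and in liver it does not mark choroid plexus. The part of cell composition in the line difference was not tested.

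Levels across tissues were compared in WT mice. On deposited FPKM the constitutive subunits of each role spanned overlapping ranges in the 3 tissues, while single genes differed (Psmd11 had 44.6 ± 4.76 FPKM in liver and 22.7 ± 1.05 in striatum), and Psmb8, Psmb9, Psme1 and Psme2 stood far higher in liver. On counts 8 of 8 alpha, 7 of 7 beta and 11 of 11 non-ATPase genes were called higher in liver than in cortex, with median log2 differences of 1.36, 1.31 and 1.03. Of the 6 ATPases 5 were higher and 1 lower, and of the 5 activator genes 3 were higher. Beside them 42.2% of all genes were called higher and 51.2% lower. These counts depend on the scaling, as given below. Per length, the 7 constitutive beta subunits had mean levels of 56.2 to 96.1 FPKM in liver, 46.3 to 79.3 FPKM in striatum and 41.2 to 74.1 FPKM in cortex (means of 16 WT libraries). The 6 ATPases had 42.1 to 56.6 FPKM in liver, 37.4 to 82.2 in striatum and 39.0 to 96.0 in cortex, and the 11 non-ATPase subunits 27.7 to 59.7, 22.7 to 58.8 and 22.9 to 59.8 FPKM in these tissues. The chaperones of 20S assembly lay lower, at 6.38 to 12.7, 5.85 to 10.8 and 5.12 to 10.2 FPKM. By FPKM the ATPase gene Psmc5 was the highest member in striatum (82.2 ± 3.88) and cortex (96.0 ± 3.38), and Psmb6 in liver (96.1 ± 8.93; SD, n = 16 each). Psma8 had at most 0.557 FPKM in any WT library.

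**Figure D3:**
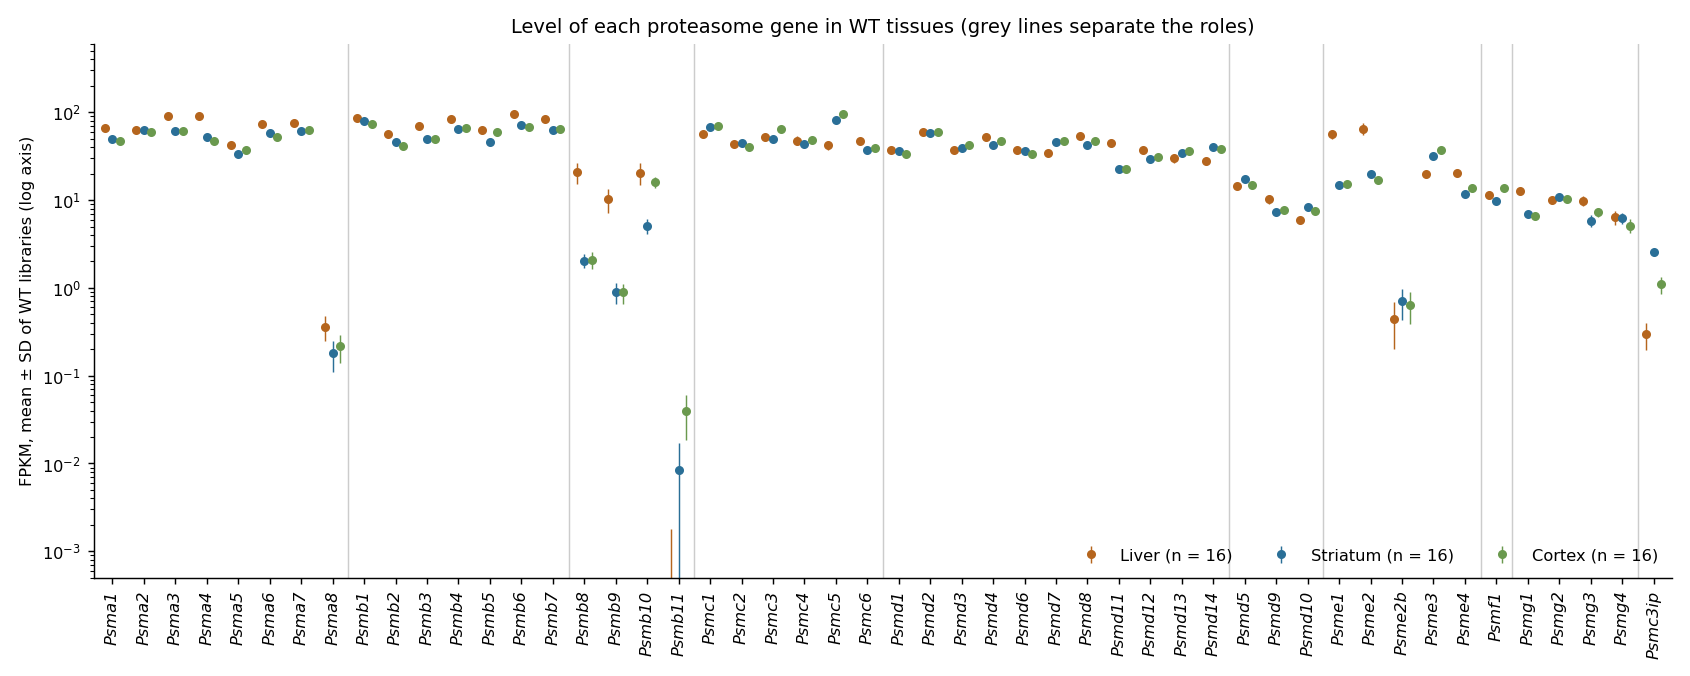
FPKM of each proteasome gene in WT liver, striatum and cortex (mean ± SD of 16 libraries, log axis; lower bars are cut short where the SD exceeds the mean), ordered by role. On this scale the constitutive subunits of each role span overlapping ranges in the 3 tissues; Psmb8, Psmb9, Psme1 and Psme2 stand higher in liver, and Psma8, Psmb11, Psme2b and Psmc3ip lie lowest.

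Psmb8, Psmb9, Psme1 and Psme2 separated liver from cortex. Psmb8 had 20.7 ± 5.53 FPKM in liver and 2.09 ± 0.449 FPKM in cortex, and Psmb9 had 10.3 ± 3.13 FPKM in liver and 0.887 ± 0.230 FPKM in cortex (SD, n = 16 each). Psme1 had 56.0 ± 6.15 FPKM in liver and 15.2 ± 1.24 FPKM in cortex, and Psme2 had 65.2 ± 10.2 FPKM in liver and 17.2 ± 1.25 FPKM in cortex. For all 4 genes in CPM, every liver library lay above every cortex library. On this scale 45 of 49 members were called higher in liver, and the share of all genes without overlap is not given here. On counts, with the animal as a block, liver exceeded cortex on the log2 scale by 4.42 ± 0.11 for Psmb9 (edgeR adjusted p = 1.31e-29), 4.24 ± 0.09 for Psmb8, 2.96 ± 0.04 for Psme2, 2.83 ± 0.04 for Psme1 and 1.91 ± 0.04 for the chaperone Psmg1. The third inducible subunit gene, Psmb10, had 20.5 ± 5.74 FPKM in liver and 15.9 ± 2.25 FPKM in cortex. In FPKM its liver and cortex libraries overlapped, while on counts liver exceeded cortex by 1.28 ± 0.10 without overlap in CPM. Lower in liver were Psmc3ip (-0.86 ± 0.13) and Psmc5 (-0.24 ± 0.04).

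The number of members higher in liver depends on the scaling. TMM factors were 0.582 to 0.706 in liver and 1.215 to 1.265 in cortex. On counts 45 of 49 members were called higher in liver and 2 lower, beside 42.2% and 51.2% of all genes, and the median difference was 1.16 over members and -0.23 over all genes. On deposited FPKM 31 members were higher and 12 lower, beside 24.5% and 69.9% of all genes, with medians of 0.21 over members and -1.03 over all genes. Relative to the median of all genes the members' median was 1.39 higher on counts and 1.24 higher on FPKM. Psmb8, Psmb9, Psme1 and Psme2 were higher in liver on both scales, by 3.23, 3.37, 1.87 and 1.91 on log2 FPKM.

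Within a library, each inducible subunit can be set against the constitutive subunit it replaces. By FPKM, Psmb8 stood at 33.4 ± 9.24% of Psmb5 in WT liver, 4.38 ± 0.634% in WT striatum and 3.55 ± 0.766% in WT cortex (mean ± SD, n = 16 each). Psmb9 stood at 10.8 ± 3.23%, 1.25 ± 0.344% and 1.31 ± 0.356% of Psmb6 in these tissues. Psmb10 did not share this order: it stood at 24.7 ± 6.86% of Psmb7 in WT liver, 8.07 ± 1.59% in WT striatum and 24.6 ± 4.23% in WT cortex.

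**Figure D4:**
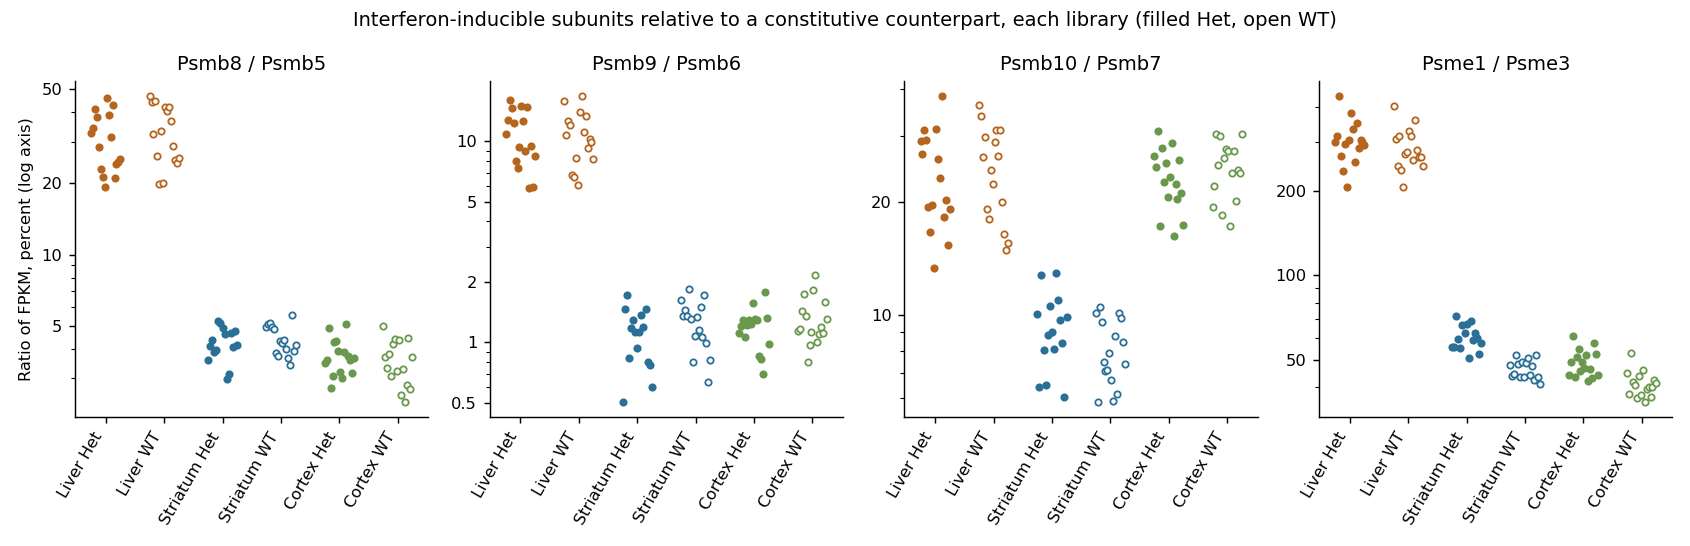
Ratio of FPKM, in percent on a log axis, of Psmb8 to Psmb5, Psmb9 to Psmb6, Psmb10 to Psmb7 and Psme1 to Psme3 in each library of liver, striatum and cortex, with Het (filled) left of WT (open). The Psmb10 ratio lies as high in cortex as in liver, and the Psme1 ratio lies higher in Het than in WT striatum, with means of 60.3% in Het and 46.4% in WT mice.

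Between the brain regions, 12 members were higher and 15 lower in WT striatum than in WT cortex, beside 33.4% and 32.9% of all genes. Psmb10 differed most, with 3.77, 5.06 and 6.72 CPM in striatum and 12.1, 16.9 and 19.4 CPM in cortex (lowest, median and highest of 16 libraries each). The regions did not overlap, and the log2 difference was -1.65 ± 0.11 (edgeR adjusted p = 1.53e-15). Without the 4 striatum libraries that stood apart it was -1.70, with 11 members higher and 18 lower, beside 31.3% and 31.1% of all genes. The antisense overlap named above holds here too. Psmb8 (0.03 ± 0.09) and Psmb9 (-0.03 ± 0.12) were not called. Psmf1 (-0.42 ± 0.03), Psmc3 (-0.38 ± 0.04), Psmb5 (-0.36 ± 0.06) and Psmg3 (-0.33 ± 0.07) were also lower in striatum. Higher in striatum were Psmc3ip (1.25 ± 0.11), Psmg4 (0.28 ± 0.08), Psmd5 (0.21 ± 0.03), Psmb2 (0.16 ± 0.04) and Psma6 (0.15 ± 0.04). Of the PA28 genes, Psme2 was higher in striatum (0.14 ± 0.04) and Psme1 was not called (-0.06 ± 0.04).

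Females and males were compared in WT mice of both lines. In liver the immunoproteasome genes were higher in females while many constitutive subunits were lower on the count scale. Psmb9 had 14.2, 16.2 and 21.9 CPM in 8 females, against 9.89, 11.1 and 13.6 CPM in 8 males (lowest, median and highest). The sexes did not overlap, and the log2 change was 0.57 ± 0.12 (edgeR adjusted p = 0.0007). Psmb10 had 25.3, 30.3 and 34.8 CPM in females, against 17.5, 20.95 and 29.4 CPM in males (0.51 ± 0.09, edgeR adjusted p = 5.04e-05). Psmb8 had 21.8, 30.3 and 34.5 CPM in females, against 18.3, 21.2 and 26.7 CPM in males (0.46 ± 0.11, edgeR adjusted p = 0.00205). For Psmb10 and Psmb8 the sexes overlapped, although every median was higher in females. Psme2 had 65.4 ± 5.41 CPM in females and 57.0 ± 4.35 CPM in males (SD, n = 8 each; 0.20 ± 0.06, edgeR adjusted p = 0.0105), while Psme1 was not called (0.03 ± 0.07). Psmb9 overlaps Tap1 and Psmb8 overlaps the antisense gene Gm20496, both on the opposite strand.

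In the 19S cap, 5 of 6 ATPases and 9 of 11 non-ATPase subunits were lower in female liver. Psmd2, a scaffold subunit of the base, had 145, 158 and 165 CPM in females, against 181, 190 and 209 CPM in males, without overlap (-0.29 ± 0.04, edgeR adjusted p = 3.98e-06). Psmc4 (-0.34 ± 0.06), Psme4 (-0.33 ± 0.06), Psmd13 (-0.30 ± 0.05) and Psmd14, the deubiquitinase of the lid (-0.29 ± 0.06), were lower as well. Of the catalytic subunits, Psmb5 (-0.25 ± 0.06) and Psmb7 (-0.21 ± 0.06) were lower in females and Psmb6 was not called (-0.12 ± 0.05, edgeR adjusted p = 0.0696). In all, 4 of 49 members were called higher and 21 lower in females, beside 14.0% and 15.3% of all genes.

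The split depends on the scaling here too. On deposited FPKM 12 members were higher and 3 lower in female liver, beside 34.8% and 5.51% of all genes, and the median over all genes was 0.16, against 0.00 on counts. Relative to those medians the members' median was -0.13 on both scales. Psmb8, Psmb9, Psmb10 and Psme2 were higher and Psmc4, Psmd2 and Psme4 lower on both scales, while Psmd13 (-0.10) and Psmd14 (-0.11) did not pass on FPKM.

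**Figure D5:**
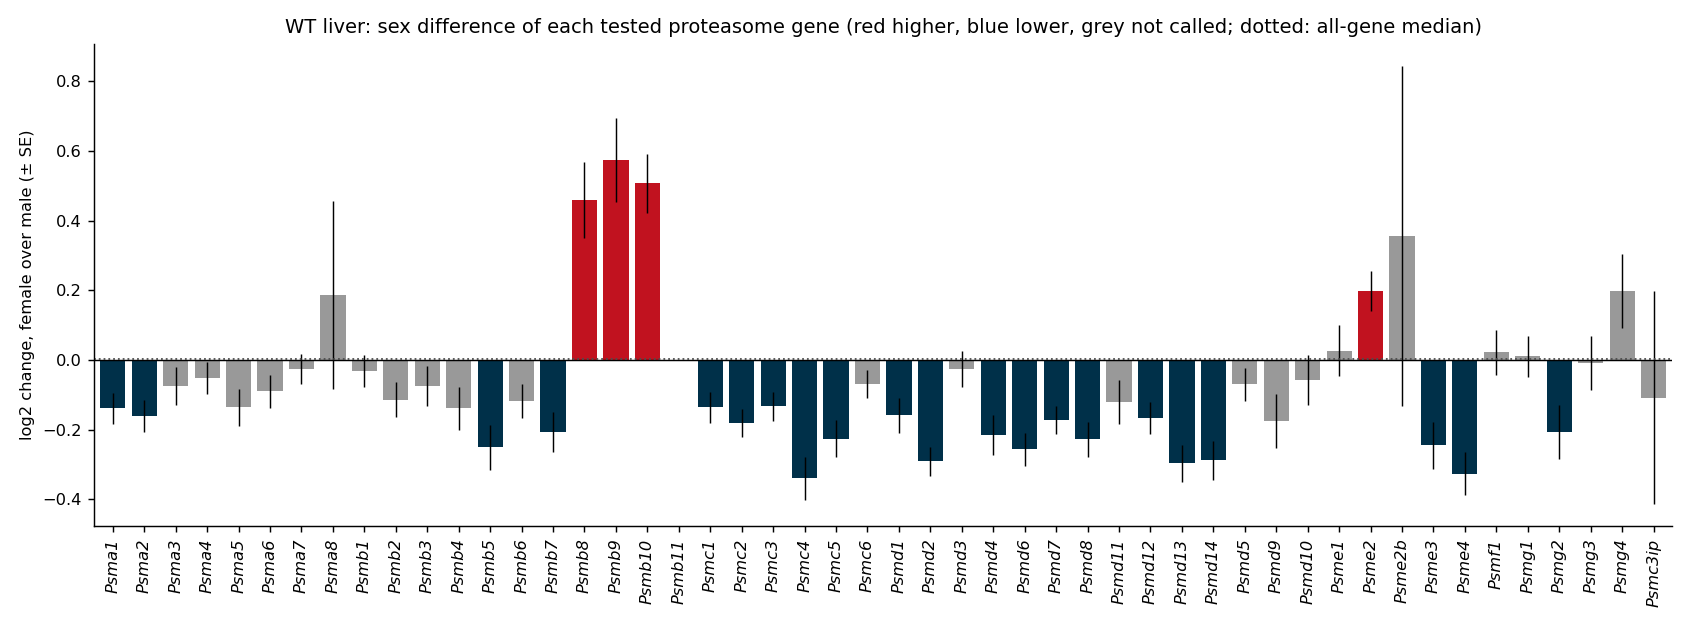
Log2 change of each tested proteasome gene in female over male WT liver on normalised counts (bars, ± SE, 8 mice each); red bars are called higher, blue lower, grey not called. Psmb8, Psmb9 and Psmb10 lie 0.46 to 0.57 above 0 and most 19S subunits below it; on FPKM 12 members are called higher and 3 lower.

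Cell type markers and pathway genes moved with sex in the same libraries, where 14.0% of all genes were called higher and 15.3% lower in females. Of 9 microglia and macrophage markers 2 were called higher in females (Aif1 and Vsig4), with sums of 165 to 288 CPM in females and 102 to 252 CPM in males. Of 6 lymphocyte markers 3 were higher (among them Cd3e and Ms4a1) and 1 lower (Cd4), with sums of 10.6 to 18.6 CPM in females and 7.49 to 15.3 CPM in males. Of 6 hepatocyte markers 2 were lower, with sums of 82680 to 109100 CPM in females and 85050 to 111600 CPM in males, and of 4 endothelial markers and 9 clock genes 0 were called by edgeR. Of the brain markers tested in liver, 2 of oligodendrocytes, 1 of choroid plexus and 1 of cortical neurons were higher, and 1 of astrocytes and 1 of striatal projection neurons lower. The part of cell composition in the sex difference was not tested. Of 13 genes of MHC class I processing 4 were higher in females, among them the peptide transporter genes Tap1 (0.41 ± 0.12) and Tap2 (0.33 ± 0.07) and Tapbp (0.32 ± 0.07), and 3 were lower, the chaperone genes Canx, Calr and Pdia3. Of 18 tested ubiquitin and shuttle genes 7 were lower and 0 higher. Of 14 NRF1 genes 5 were lower and 1 higher, and of 12 proteasome partners 3 were lower and 0 higher. In WT striatum 0 of 49 members were called for sex by edgeR (3 at an unadjusted p below 0.05; 0 by DESeq2), beside 0.232% of all genes, and in WT cortex 0 (3 at an unadjusted p below 0.05; 0 by DESeq2), beside 0.396%.

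The promoter windows were searched for 4 further patterns in the 42 members with a RefSeq window, on both strands. The ETS core CCGGAAG was in 14 member windows (33.333%), against 9.121% of all 27025 gene windows. The antioxidant-type element TGACNNNGC, of the kind NRF1 binds, was in 6 (14.286%, against 12.466%), the box CCAAT in 15 (35.714%, against 37.92%) and the gamma-activated pattern TTCNNNGAA in 3 (7.143%, against 8.466%), among them Psmb8. Of the 12 members called over both lines in striatum, Psmd2, Psmd6 and Psmd11 held the ETS core and Psme1 held the interferon-stimulated pattern. A match says only that these letters stand in the window.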

How the data were processed

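Messenger RNA of 3 tissues from 32 mice was sequenced (95 libraries; 31 mice gave all 3 tissues). The deposited tables hold expected counts and FPKM per gene and library, and a table of animal data with CAG lengths. CASAVA 1.8.2 and the mm10 build were used, per the submitters' processing notes. For the aligner, the counter, the annotation and the strand setting, the sources used here name nothing. Of the deposited counts above 1, 32.23% were not whole, and they were rounded before testing. Symbols come from GENCODE M21.

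Each tissue was fitted with edgeR 4.0.16 in R 4.3.3 (filterByExpr, TMM scaling, quasi-likelihood test), with 1 coefficient per line, genotype and sex. P-values were adjusted by Benjamini-Hochberg over all genes tested, and a gene was called at an adjusted p below 0.05. Shares of all genes refer to the adjusted p, also where the same sentence gives members at an unadjusted p. SEs are the log2 change divided by the square root of F. WT tissues of 16 mice were compared with the animal as a block. Alternatives were DESeq2 size factors, DESeq2 1.42.0, no count filter, limma 3.58.1 on log2(FPKM + 0.1), only the groups compared, a replicate block, a liver clock score and each library left out. Leaving out the 4 striatum libraries with over 100 CPM of Slc17a7 or over 1000 CPM of Ttr was added after seeing the data. Scripts were tested on simulated data.

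The members and gene lists were chosen with earlier results of these data known. Named were the catalytic, inducible and activator genes, Psma8 and Psmf1, up to 6 called members by p per genotype comparison and up to 5 per direction by size in the others. Psmc3, Psmc4 and Psmd2 in striatum and Psmc2 between the WT lines were named after their values were seen. Of 141 replicate pairs none agreed within sampling noise (lowest chi-square per gene 4.335). The labels give separate animals. Some called genes of the lists are not reported here by name.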

Additional observations from a re-analysis of the deposited data

Results flagged for a closer look

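Within groups of 7 or 8 libraries, 12 values of 264 groups (22 genes) stood far from the other libraries of their group by Dixon's ratio, and chance flags about 1 group in 20. In striatum 3 of them fell in the third neo-out WT female, the library with high Ttr: Psmb7 had 80.6 CPM (nearest library 75.5), Psmc4 65.7 CPM (nearest 59.1) and Psme4 63.9 CPM (nearest 69.5). The second neo-out Het male had 59.2 CPM of Psmd8 in striatum (nearest 61.3).

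In cortex the third neo-in Het female held the highest Psme1 of its group, 22.8 CPM (nearest 19.7), and the lowest Psme4, 67.2 CPM (nearest 73.3). Psmb8 had 3.82 CPM in the fourth neo-out Het female (nearest 2.74) and Psmb9 1.82 CPM in the second neo-out Het male (nearest 1.19). Psmb7 had 69.9 CPM in the fourth neo-out WT male (nearest 75.8), Psmc5 115 CPM in the second neo-out WT male (nearest 126) and Psme3 83.0 CPM in the third neo-in WT female (nearest 96.1). In liver the first neo-out WT female had 64.7 CPM of Psmb6 (nearest 70.6).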

How the results depend on the processing

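Among results for single genes, 316 of 350 values under alternatives kept direction and call, 33 lost the call and 1 changed sign, Psmb10 between the WT lines in liver (0.066 with the clock score). Counts of members called in Het against WT striatum, given for neo-in mice, neo-out mice and both lines, were 7, 5 and 12 as reported. On FPKM they were 15, 12 and 25, beside 15.6%, 13.2% and 25.5% of all genes called higher. With the clock score they were 6, 0 and 7, beside 6.29%, 2.61% and 13.6%. With no count filter they were 4, 3 and 9, beside 5.02%, 4.26% and 9.55%. With only the neo-in groups in the fit 4 were called in neo-in mice, beside 7.59%. All of these members were higher. In cortex DESeq2, FPKM and the clock score gave 2, 2 and 0 in neo-out mice, beside 1.31%, 0.837% and 0.109% of all genes called higher. Over both lines they gave 3, 2 and 2, beside 3.24%, 3.5% and 1.92%. In neo-in liver DESeq2 called 2 lower, beside 0.638% of all genes. No filter, the replicate block, the clock score and the groups alone gave 0 each, beside 0.029%, 0.138%, 0.0197% and 0.0135% lower. DESeq2 called 2 higher for the line difference in liver, beside 0.907%. Between the WT lines in liver no filter gave 4, beside 2.49% of all genes higher and 2.17% lower. FPKM gave 12, beside 3.27% and 5.94%, and the clock score 0, beside 0.0197% and 0.0132%. Between the sexes in liver FPKM gave 15, beside 34.8% and 5.51%. The cause of these shifts was not tested.

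Leaving out 1 library at a time, members called ranged over 3 to 7 in neo-in, 3 to 8 in neo-out and 9 to 15 over both lines in striatum, and over both lines in cortex 1 to 2. They ranged over 0 to 2 in neo-in liver, 0 to 1 for the line difference in liver, 4 to 10 between the WT lines and 22 to 30 between the sexes in liver, 27 to 29 between striatum and cortex and 47 to 47 between liver and cortex. Neo-in striatum had 4 without Het male 1 and 3 without WT female 1. Neo-out striatum had 3 without Het male 2 or 3 and 8 without WT female 3, the high-Ttr library. Neo-in liver had 2 without Het male 3 and 0 without any 1 of 9 others. The line difference in liver had 1 without neo-out Het female 3, neo-in WT female 3 or neo-in WT male 3. Between the WT lines in liver 4 were called without neo-out WT female 1 or male 2. Over both lines in cortex any 1 of 11 libraries brought the count to 2. The shares of all genes called in these refits are not given here. A shift of the members therefore cannot be told from a shift of all calls.

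Replicate numbers do not pair the samples: same-numbered libraries correlated from -0.182 to 0.216 in striatum, -0.22 to 0.087 in cortex and -0.104 to 0.242 in liver. With the replicate block 6, 4 and 11 members were called in striatum, 0, 1 and 1 in cortex and 0, 0 and 0 in liver (neo-in, neo-out, both lines). Beside them stood 8.43%, 8.68% and 16.1% of all genes called higher in striatum, 0.229%, 0.476% and 1.83% in cortex and 0.395%, 0.256% and 0.0329% in liver. Without the animal block 27 members differed between striatum and cortex, beside 33.8% of all genes higher and 33.3% lower. Between liver and cortex 47 differed, beside 42.3% and 51.1%. Low counts limit Psmb9, Psme2b, Psma8 and Psmb11 in brain.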

Other observations

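Genes within 50 kb of Psme1 and Psme2 on chromosome 14 were read beside them, chosen after their values were seen. Over both lines in striatum, Rnf31, which encodes a subunit of the linear ubiquitin ligase and starts next to Psme2, had a log2 change of 0.15 ± 0.04 (edgeR adjusted p = 0.00111), and Tm9sf1 had 0.09 ± 0.02 (edgeR adjusted p = 0.00447). Irf9, an interferon signalling gene further along, had -0.12 ± 0.06 (edgeR adjusted p = 0.149) and was not called, and Emc9, which lies between the PA28 genes, had 0.01 ± 0.05 (edgeR adjusted p = 0.912). In cortex Psme1 was the only gene of this window called over both lines by edgeR.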
